A study of Homo sapiens with 6 samples.

Results

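The genes followed here by RNA sequencing act in glutathione turnover in A2780, a human cell line from ovarian cancer: OPLAH, GCLC, GCLM, GSS, GGCT, CHAC1, GGT7, GSR, GPX1 and GPX4. They are 10 of the 24054 genes in the deposited count table, found there by their symbols, and all 10 passed the filter on low counts that left 14233 genes to test. The treated group was 3 samples that had received SCR-6920, a PRMT5 inhibitor per the series title, at 1 µM for 48 hours, and 3 control samples had received DMSO. Both groups were wild type per the labels, and the labels name no clone, batch or separate cultures, so the p-values below measure only the spread between these samples, which may be technical. OPLAH was picked for its size of change in this very contrast, where it had the largest fall of 5012 protein-coding genes with at least 5 CPM (counts scaled to library size), a passed test and no overlap of the groups, and the other 9 were added with those results known. Changes of the 10 genes are therefore given as a description. Which of them passed the threshold of the fit over all genes is stated as part of that description, and is no evidence beyond the choice itself.

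Glutathione is a tripeptide of glutamate, cysteine and glycine and the main small thiol that cells use against peroxides and electrophiles. In the gamma-glutamyl cycle it is built in a pair of ATP-driven steps, broken down to gamma-glutamyl groups and cysteinylglycine, and rebuilt. The gamma-glutamyl part is released as 5-oxoproline, which OPLAH, the enzyme 5-oxoprolinase, opens to glutamate at the cost of ATP. Beside the cycle, glutathione peroxidases oxidise glutathione to its disulfide and glutathione reductase, encoded by GSR, restores it with NADPH.

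OPLAH stood far from the other 9 genes. Each of those differed by less than 1.5-fold between the groups, with log2 changes (SCR-6920 over DMSO) from -0.28 to 0.38, while OPLAH had a log2 change of -2.08. Of the 10 genes, 4 were called lower (OPLAH, GCLC, GCLM and GGCT), 2 were called higher (GSS and GPX1) and 4 were not called (CHAC1, GGT7, GSR and GPX4) at an adjusted p under 0.05 by edgeR. Over all tested genes 42.0% were called, 21.3% lower and 20.6% higher, and nothing is read from the count of the 10, since they were chosen with this contrast in view. Their median log2 change was -0.09, against -0.00185 over all tested genes. The groups did not overlap for 5 of the 10 genes, against 50.6% of tested genes.

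**Figure D1:**
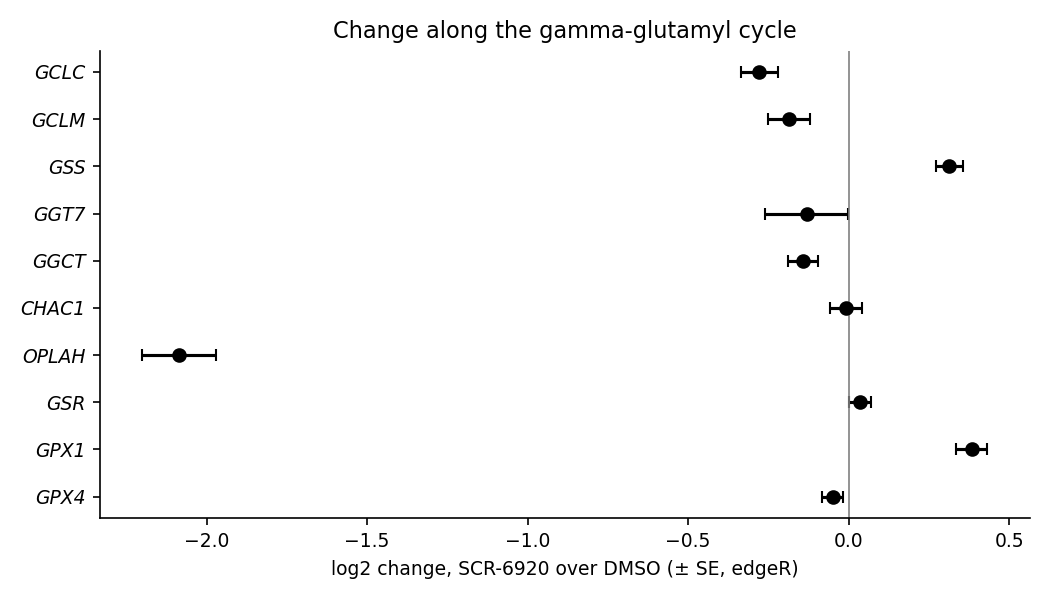
Log2 change of each gene, SCR-6920 over DMSO, with its SE from the edgeR fit (3 samples per group), ordered along the cycle from synthesis at the top to the peroxidases at the bottom. OPLAH lies at -2.08, and the other 9 genes lie between -0.28 and 0.38.

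The first step of synthesis, the joining of glutamate and cysteine, is carried out by glutamate-cysteine ligase, with GCLC as its catalytic and GCLM as its modifier subunit. GCLC measured 34.8, 33.6 and 34.6 CPM in the SCR-6920 samples, against 41.6, 42.4 and 40.8 CPM in the DMSO samples. The groups were well apart, and GCLC fell by 0.28 ± 0.06 in log2 units (SE, 3 samples a group). GCLM measured 69.7, 67.9 and 69.0 CPM in SCR-6920 samples, against 87.8, 77.5 and 69.7 CPM in DMSO samples. The treated samples were tight and the controls spread out, with DMSO replicate 1 highest and DMSO replicate 3 level with the treated samples. The log2 change of GCLM was -0.19 ± 0.07 (SE), and the call did not hold without DMSO replicate 1 (log2 change -0.10), with DMSO replicate 2 removed (-0.19) or with SCR-6920 replicate 1, 2 or 3 removed (-0.20, -0.18 and -0.19). The level of GCLC per length over that of GCLM was 0.833, 0.827 and 0.839 in SCR-6920 samples, against 0.792, 0.914 and 0.979 in DMSO samples, so these ratios overlapped.

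Of the 10 genes, 6 (GCLC, GCLM, GPX1, GPX4, CHAC1 and GGT7) have an entry in the RefSeq promoter table of build GRCh38.p14, which holds 250 bases before and 50 bases after each start site. The stretches before the start sites of both ligase subunits are shown because their products form 1 enzyme, the first of the cycle. Runs that meet no GENCODE 29 exon are printed, on the minus strand, with a match to the CCAAT box (CCAAT) in capitals, which the GCLM window lacks.
GCLC, chr6:53545130-53545351: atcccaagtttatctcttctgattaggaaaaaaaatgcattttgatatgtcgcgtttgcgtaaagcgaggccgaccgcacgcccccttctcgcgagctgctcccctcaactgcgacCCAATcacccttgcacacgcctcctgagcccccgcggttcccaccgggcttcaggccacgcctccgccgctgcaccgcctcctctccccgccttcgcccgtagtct
GCLM, chr1:93909457-93909680: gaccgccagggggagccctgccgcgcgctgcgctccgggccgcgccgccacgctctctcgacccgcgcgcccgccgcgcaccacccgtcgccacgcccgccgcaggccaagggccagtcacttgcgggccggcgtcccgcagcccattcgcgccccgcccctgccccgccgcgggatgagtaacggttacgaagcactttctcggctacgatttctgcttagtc

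The windows were also searched on both strands for the core of the antioxidant response element (TGACNNNGC), which NRF2 is known to bind, the C/EBP-ATF response element (TGATGNAA), which ATF4 is known to bind, and the E-box (CACGTG). Each of the 3 had a match in 1 gene's window. The matches are shown in capitals within 30 bases each, those of GCLM and CHAC1 being on the strand opposite to the gene.
GCLM, antioxidant response element core, chr1:93909445-93909474, minus strand: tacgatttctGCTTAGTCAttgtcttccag
CHAC1, C/EBP-ATF response element, chr15:40953251-40953280, plus strand: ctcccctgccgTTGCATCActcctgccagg
GPX1, E-box, chr3:49358360-49358389, minus strand: aactgcctgtgcCACGTGacccgccgccgg
Of all 35116 windows in the table, 13.3% hold the antioxidant response element core, 3.62% the C/EBP-ATF response element, 7.26% the E-box and 34.6% the CCAAT box. A match describes the letters only.

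The second step of synthesis went the other way. GSS, which encodes the synthetase that adds glycine, measured 89.4, 91.2 and 91.8 CPM in SCR-6920 samples, against 74.9, 73.4 and 71.0 CPM in DMSO samples. GSS rose 1.24-fold (log2 change 0.31 ± 0.04 SE), with every treated sample above every control. Per length, GSS over GCLC was 3.29, 3.47 and 3.39 in SCR-6920 samples, against 2.30, 2.21 and 2.22 in DMSO samples. The balance of the synthesis transcripts thus lay further toward GSS in all 3 treated samples.

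Breakdown of glutathione starts either outside the cell, by gamma-glutamyltransferases, or in the cytosol, by CHAC1 and CHAC2. GGT7, a member of the gamma-glutamyltransferase family, was low and variable, at 9.43, 7.94 and 11.1 CPM in SCR-6920 samples and 8.68, 10.99 and 11.5 CPM in DMSO samples. The groups overlapped and the log2 change was -0.13 ± 0.13 (SE). Leaving out 1 sample at a time gave values of GGT7 from -0.26 to -0.02, none of them called. CHAC1, which cuts glutathione itself and is known as a target of the ATF4 stress response, measured 62.3, 62.4 and 62.3 CPM in SCR-6920 samples, against 59.4, 61.7 and 67.1 CPM in DMSO samples. The treated samples lay inside the range of the controls, and the log2 change was -0.01 ± 0.05 (SE).

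GGCT and OPLAH encode enzymes that form and open 5-oxoproline, and only their mRNA was measured. GGCT, the cyclotransferase that forms 5-oxoproline from gamma-glutamyl amino acids, measured 81.9, 71.2 and 77.0 CPM in SCR-6920 samples, against 82.7, 85.4 and 85.5 CPM in DMSO samples. The groups came within 1 CPM of each other without overlapping, and GGCT fell by 0.14 ± 0.05 on the log2 scale (SE). Its call ended with DMSO replicate 2 removed (log2 change -0.13) and with SCR-6920 replicate 2 removed (-0.09).

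OPLAH had 168, 210 and 158 counts in the SCR-6920 samples, against 813, 820 and 720 counts in the DMSO samples. After scaling these were 4.40, 5.46 and 4.14 CPM in SCR-6920 samples, against 20.5, 20.9 and 18.1 CPM in DMSO samples. The highest treated sample lay far below the lowest control, and the log2 change was -2.08 ± 0.12 (SE), which is 4.24-fold lower. In bulk samples such as these, fewer cells that express a gene and less RNA per cell cannot be told apart. Leaving out any 1 sample gave log2 changes of OPLAH from -2.22 to -2.01. The fall held under every normalization run, and on the log2(FPKM + 1) scale, which compresses low values, it was -1.43.

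The per-length ratio of GGCT to OPLAH was 61.6, 43.1 and 61.5 in SCR-6920 samples, against 13.3, 13.5 and 15.7 in DMSO samples. Transcripts for the enzyme that makes 5-oxoproline from gamma-glutamyl amino acids thus outnumbered those for the enzyme that opens it in every sample, and by more in the treated ones. The ratio is of mRNA levels and does not measure 5-oxoproline or either enzyme.

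**Figure D2:**
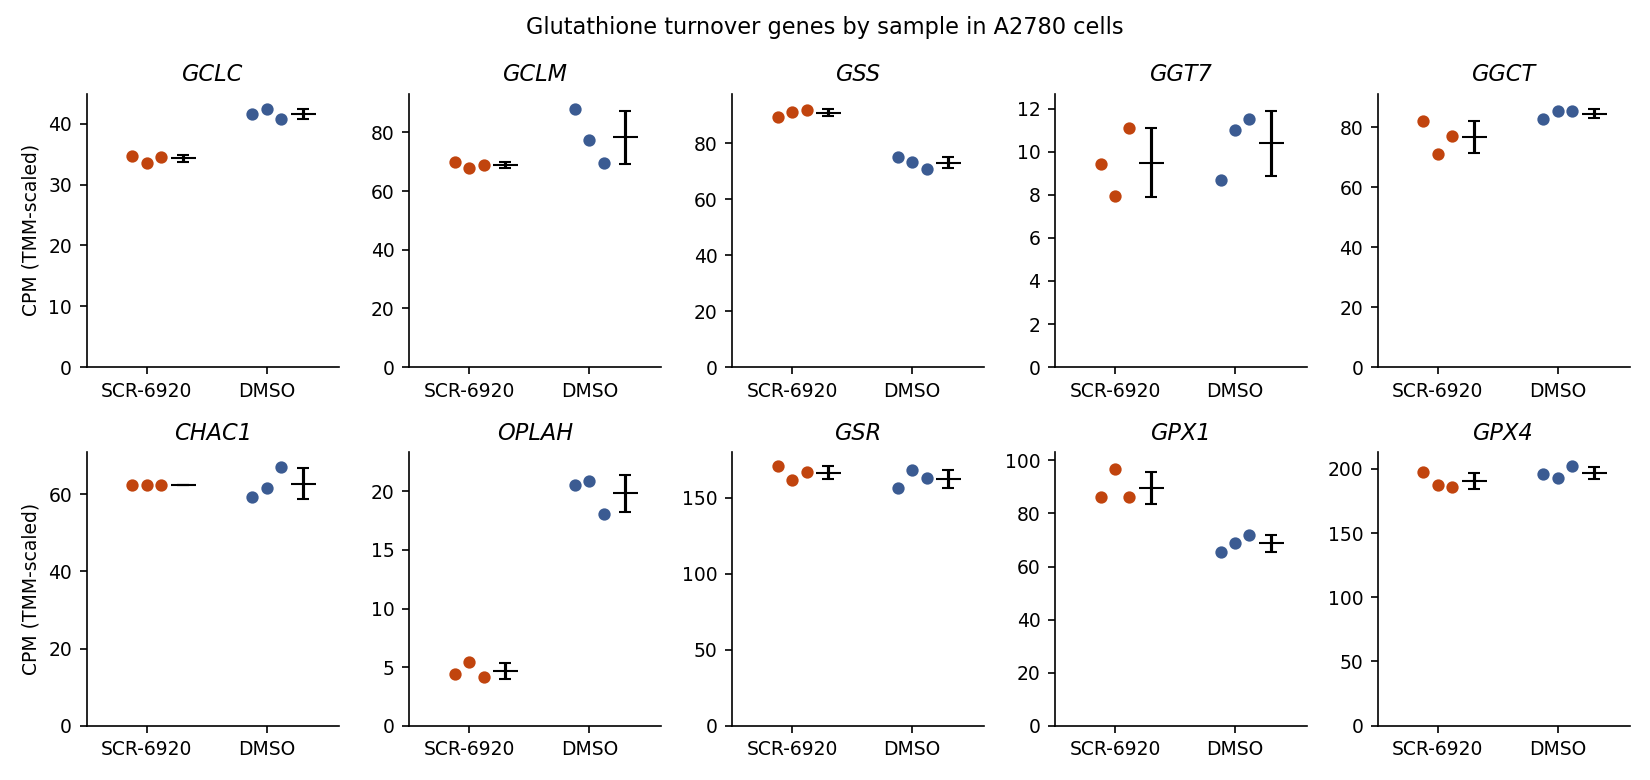
CPM of each gene in every sample, with SCR-6920 samples (orange) left of DMSO samples (blue) and the mean ± SD of 3 samples beside each group. The groups are apart for GCLC, GSS, GGCT, OPLAH and GPX1, and for OPLAH the treated samples lie at 4.14 to 5.46 CPM against 18.1 to 20.9 CPM in DMSO samples.

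Among the peroxidase genes GPX1 and GPX4 and the reductase gene GSR, only GPX1 was called. GPX1, the cytosolic glutathione peroxidase that reduces hydrogen peroxide, measured 86.3, 96.7 and 86.1 CPM in SCR-6920 samples, against 65.5, 68.9 and 71.8 CPM in DMSO samples. All treated samples were above all controls, and GPX1 rose 1.31-fold (log2 change 0.38 ± 0.05 SE). GPX4, which reduces lipid hydroperoxides in membranes and is known as the brake on ferroptosis, measured 197, 187 and 186 CPM in SCR-6920 samples, against 196, 193 and 202 CPM in DMSO samples. Those values overlapped, with a log2 change of -0.05 ± 0.03 (SE). GSR measured 171, 162 and 167 CPM in SCR-6920 samples, against 156, 168 and 163 CPM in DMSO samples, and its log2 change was 0.04 ± 0.04 (SE). Per length, GPX1 over GPX4 was 0.428, 0.505 and 0.453 in SCR-6920 samples, against 0.327, 0.350 and 0.348 in DMSO samples, without overlap.

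Levels per length could be ordered with the deposited FPKM values (counts scaled to gene length and library total). GPX4 was the most abundant of the 10 in both groups, at 164.3 ± 5.0 FPKM in SCR-6920 samples and 171.5 ± 4.2 FPKM in DMSO samples (SD, n = 3). In SCR-6920 samples GPX1 (75.8 ± 5.0), GGCT (58.1 ± 4.0), GSR (54.6 ± 1.4) and GSS (30.27 ± 0.51) followed, and in DMSO samples GGCT (64.6 ± 1.1), GPX1 (58.6 ± 2.7), GSR (53.7 ± 1.9) and GSS (24.56 ± 0.69). GPX1 thus stood above GGCT in treated samples and just below it in controls. GCLM, GCLC and CHAC1 lay close together near 10 FPKM, and in DMSO samples the neighbours GCLM and GCLC, and GCLC and CHAC1, overlapped. The place of CHAC1 rests on a gene length of 6081 bases in the deposited values, longer than the 3042 bases the gene spans in RefSeq.

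At the low end of that order the last 2 places were exchanged. OPLAH averaged 1.07 ± 0.16 FPKM in SCR-6920 samples and 4.58 ± 0.36 FPKM in DMSO samples, and GGT7 averaged 2.79 ± 0.48 FPKM in SCR-6920 samples and 3.08 ± 0.44 FPKM in DMSO samples (SD, n = 3). OPLAH was above GGT7 in every control sample and below it in every treated sample. Replicate spread was widest for these low genes in treated samples, with coefficients of variation in CPM of 14.98% for OPLAH and 16.8% for GGT7, against 7.81% and 14.5% in DMSO samples.

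**Figure D3:**
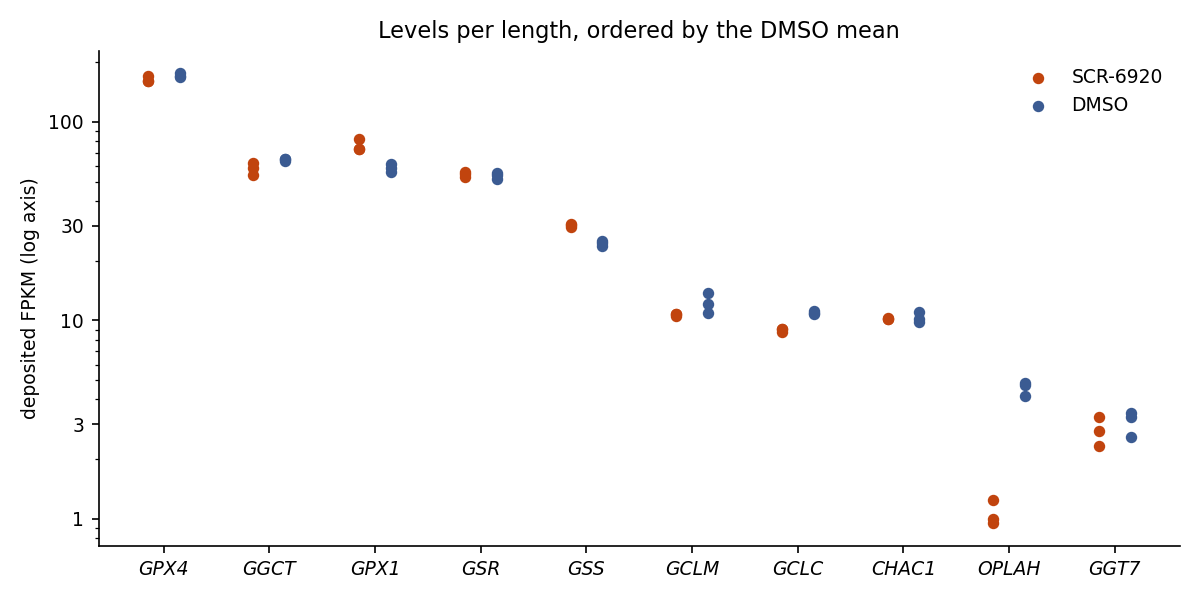
Deposited FPKM of each gene on a log axis, every sample as a point, SCR-6920 (orange) left of DMSO (blue), ordered by the DMSO mean. The treated OPLAH samples lie near 1 FPKM, below those of GGT7, while GPX4 lies above 160 FPKM in every sample.

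Whether counting used strand is not stated in the sources here. GENCODE 29 places a gene on the opposite strand over parts of OPLAH (SMPD5), GGT7 (ACSS2) and GCLC (AL033397.2), and counts of those 3 genes are uncertain to that extent. On the same strand it places AC005154.5 over part of GGCT, AL033397.1 over part of GCLC and MIR6846 over part of OPLAH, which makes these counts uncertain whether or not strand was used. GPX1 has 2 processed copies in that annotation, GPX1P1 and GPX1P2, so its reads could be shared.

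The wider pathway was described with 11 gene lists chosen by function, with the 10 genes above left out. Of 157 genes listed, 147 were in the table and 128 were tested, of which 44 fell, 20 rose and 64 did not pass (edgeR quasi-likelihood test, Benjamini-Hochberg adjusted p under 0.05 over all tested genes). That is 64 called and 64 not, against 42.0% called of all tested genes, with a median log2 change of -0.04 in the lists. The deposited table's own pathway annotation marks 49 genes as glutathione metabolism, the 10 genes included. Of the 30 others that were tested, 18 fell and 4 rose, or 13 and 3 of 24 without 6 genes of nucleotide reduction and polyamine synthesis. The median log2 change of the 30 was -0.16.

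Other genes of the gamma-glutamyl cycle and of 5-oxoproline release went both ways: of 8 tested, 3 fell, 1 rose and 4 did not pass. GGT1, the main enzyme that cuts extracellular glutathione, measured 24.8, 26.2 and 28.4 CPM in SCR-6920 samples, against 19.6, 20.5 and 19.6 CPM in DMSO samples. GGT1 was higher in all 3 treated samples and rose by 0.41 ± 0.08 on the log2 scale (SE, adjusted p = 3.65e-05, edgeR). Reads could be shared with its near-identical copies. QPCTL, a glutaminyl cyclase that forms pyroglutamate at protein ends, measured 18.5, 14.0 and 16.0 CPM in SCR-6920 samples, against 24.7, 29.4 and 27.9 CPM in DMSO samples, and fell by 0.76 ± 0.09 (adjusted p = 1.29e-07). The peptidases CNDP2, which splits cysteinylglycine, and LAP3 fell by 0.26 ± 0.04 and 0.20 ± 0.03. CHAC2, the paralog of CHAC1, was highest in DMSO replicate 1 and did not pass, at -0.14 ± 0.12 (adjusted p = 0.357). PGPEP1, which removes pyroglutamate from peptides, had 0.19 ± 0.10 (adjusted p = 0.117), and passed as higher without SCR-6920 replicate 3 (adjusted p = 0.0262), giving 2 higher genes on the list.

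Glutathione transport was the list with the largest share called, 7 of 8, against 42.0% of all tested genes. The lists were chosen with earlier results of these data known, so nothing is read from this rank. Whether the product of each listed gene carries glutathione in these cells was not tested. ABCC1, which exports glutathione and its conjugates, rose by 0.22 ± 0.04 on the log2 scale (SE, adjusted p = 7.7e-06, edgeR). The other 6 called genes fell, where 21.3% of all tested genes were called lower. The mitochondrial carrier genes were all among those: SLC25A10 fell to 0.571-fold (-0.81 ± 0.06), SLC25A11 by 0.44 ± 0.05, and SLC25A40 and SLC25A39, whose products import glutathione into mitochondria, by 0.33 ± 0.08 and 0.26 ± 0.04. SLC25A10 measured 31.6, 31.4 and 33.0 CPM in SCR-6920 samples, against 57.1, 53.0 and 58.0 CPM in DMSO samples. The efflux gene ABCC4 fell by 0.34 ± 0.05. The list's median log2 change was -0.33.

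Of 14 tested glutathione transferases, 6 fell, 1 rose and 7 did not pass. GSTA4, which conjugates the lipid peroxidation product 4-hydroxynonenal, measured 23.1, 20.97 and 22.03 CPM in SCR-6920 samples, against 34.8, 34.0 and 34.3 CPM in DMSO samples, and fell by 0.64 ± 0.07 (log2, SE, adjusted p = 2.79e-09, edgeR). MGST1 fell by 0.39 ± 0.11 and GSTO1 rose by 0.20 ± 0.05. GSTM4 fell by 0.44 ± 0.13, a call that ended with DMSO replicate 1 (adjusted p = 0.0555) or SCR-6920 replicate 2 (0.0515) removed, and its reads could be shared with other mu-class genes. Peroxidases, glutaredoxins and related enzymes had 2 of 11 genes higher, 1 lower and 8 not passing, or 27.3% called against 42.0% of all tested genes. ADH5 and ESD, which clear formaldehyde bound to glutathione, rose by 0.12 each. PRDX6 fell by 0.08 ± 0.03, with an adjusted p of 0.0897 and 0.0636 once DMSO replicate 2 or 3 was removed, and of 0.074 and 0.0547 once SCR-6920 replicate 2 or 3 was removed, leaving 0 lower.

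The list for cysteine supply also held genes of sulfur breakdown, with ETHE1 and TST among those that fell. Its counts therefore do not measure supply alone. Of 15 tested genes, 6 fell and 9 did not pass, and 1 of the 9 passed as higher by edgeR when DMSO replicate 1 was left out. That gene was SLC7A11, the cystine transporter that limits glutathione synthesis in many cells. SLC7A11 measured 79.2, 73.0 and 77.9 CPM in SCR-6920 samples, against 88.0, 67.8 and 69.2 CPM in DMSO samples. As with GCLM, DMSO replicate 1 was the highest control, and without it the log2 change was 0.16 (adjusted p = 0.00413), against 0.03 ± 0.11 with it (SE, adjusted p = 0.858). ETHE1, the persulfide dioxygenase of sulfur breakdown, measured 5.66, 5.65 and 7.21 CPM in SCR-6920 samples, against 12.1, 12.4 and 13.7 CPM in DMSO samples, and fell by 1.047 ± 0.12 (adjusted p = 1.78e-08). The sulfurtransferase gene TST fell by 0.37 ± 0.12 and the neutral amino acid transporter gene SLC1A4 by 0.35 ± 0.05.

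Glutamate, the product of OPLAH, is also made and used by transaminases and glutaminase. Of 9 tested genes of glutamate supply, 3 fell and 1 rose. The number higher was 2 with DMSO replicate 1 removed, by edgeR with RLE factors, without the low-count filter or with a replicate block, and by DESeq2. PSAT1, GOT1 and GOT2 fell by 0.24 ± 0.02, 0.23 ± 0.04 and 0.19 ± 0.03 on the log2 scale, and GPT2 rose by 0.15 ± 0.03 (SE, adjusted p = 0.000613, edgeR).

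NADPH, which GSR consumes, comes in large part from the pentose phosphate pathway. Of 16 tested genes of NADPH supply, 7 fell, 3 rose and 6 did not pass, with 1 higher without SCR-6920 replicate 1. TALDO1, the transaldolase, measured 93.6, 90.5 and 91.0 CPM in SCR-6920 samples, against 130.4, 135.4 and 139 CPM in DMSO samples, and fell by 0.56 ± 0.04 (log2, SE, adjusted p = 1.91e-13, edgeR). NADK, the cytosolic NAD kinase, fell by 0.48 ± 0.05. The malic enzyme gene ME1 rose by 0.37 ± 0.07. RPIA rose by 0.13 ± 0.05 but its adjusted p was 0.163 with DMSO replicate 3 removed, and 0.123 and 0.0646 with SCR-6920 replicates 1 and 2 removed, and IDH2 rose by 0.11 ± 0.03 but did not pass without SCR-6920 replicate 1 (adjusted p = 0.0584).

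In the thioredoxin system, the parallel route of thiol reduction, 5 of 17 tested genes fell, 1 rose and 11 did not pass. The peroxiredoxin genes PRDX3 and PRDX2 fell by 0.27 ± 0.03 and 0.25 ± 0.03, the methionine sulfoxide reductase gene MSRB1 by 0.34 ± 0.06, and TXNL1 rose by 0.35 ± 0.04 (log2, SE). A second gene, TXNRD1, passed as higher without DMSO replicate 1 (adjusted p = 0.0285, edgeR), with a log2 change of 0.06 ± 0.03 when that sample was kept. GPX1 and GPX4 are selenoproteins, and of 9 tested genes for selenocysteine and selenium supply 4 fell and 2 rose. SEPSECS, which makes selenocysteine on its tRNA, rose by 0.64 ± 0.10 and SECISBP2L by 0.42 ± 0.05. The related gene SECISBP2 fell by 0.26 ± 0.05. TRNAU1AP fell by 0.64 ± 0.10, the selenoprotein P receptor gene LRP8 by 0.39 ± 0.06, and the elongation factor gene EEFSEC by 0.35 ± 0.11, the last not passing without DMSO replicate 3 (adjusted p = 0.0539).

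GCLC and GCLM are known targets of NRF2, the antioxidant transcription factor encoded by NFE2L2. Of 11 other tested NRF2 targets, 5 rose, 2 fell and 4 did not pass, with a median log2 change of 0.28. NQO1, a quinone reductase, measured 276, 278 and 289 CPM in SCR-6920 samples, against 163, 170.3 and 179.9 CPM in DMSO samples. NQO1 rose 1.64-fold (log2 change 0.72 ± 0.03 SE, adjusted p = 2.87e-17, edgeR). HMOX1, the haem oxygenase, rose 1.66-fold (0.73 ± 0.06) and FTH1, the ferritin heavy chain, 1.33-fold (0.41 ± 0.02). The 2 genes that fell did so by little, FTL by 0.06 ± 0.02 and ABCB6 by 0.19 ± 0.07. For FTL the adjusted p was 0.0984 and 0.127 with DMSO replicate 2 or 3 removed and 0.0975, 0.082 and 0.0936 with SCR-6920 replicate 1, 2 or 3 removed. For ABCB6 the adjusted p was 0.157 with DMSO replicate 1 removed, and 0.1 and 0.0745 with SCR-6920 replicates 1 and 3 removed. The number of NRF2 targets that fell was 1 with any DMSO sample or SCR-6920 replicate 2 removed, and 0 with SCR-6920 replicate 1 or 3 removed. It was also 1 by edgeR with RLE factors, without the low-count filter or with a replicate block, and by DESeq2, and 0 at an adjusted p under 0.01.

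NRF2 and its regulators changed little, with 3 of 10 higher and 1 lower. The log2 change was 0.07 ± 0.04 for NFE2L2 (SE, edgeR adjusted p = 0.157), and passed as higher without DMSO replicate 1 (0.11, adjusted p = 0.0158). KEAP1, the repressor of NRF2, had 0.07 ± 0.03 (adjusted p = 0.0842). MAFF, a small MAF partner, rose by 0.31 ± 0.09 and RBX1, a part of the ligase that degrades NRF2, by 0.21 ± 0.05. CUL3 rose by 0.08 ± 0.03, and its adjusted p was 0.0848 and 0.0757 with DMSO replicate 1 or 2 removed and 0.119, 0.1 and 0.0667 with SCR-6920 replicate 1, 2 or 3 removed. BACH1, a repressor at the same elements, fell by 0.17 ± 0.06 a call that ended with DMSO replicate 1 (adjusted p = 0.143) or SCR-6920 replicate 3 (0.0681) removed, leaving 0 lower without SCR-6920 replicate 3. The number lower was also 0 by limma on log2(FPKM + 1) without a filter and at an adjusted p under 0.01.

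**Figure D4:**
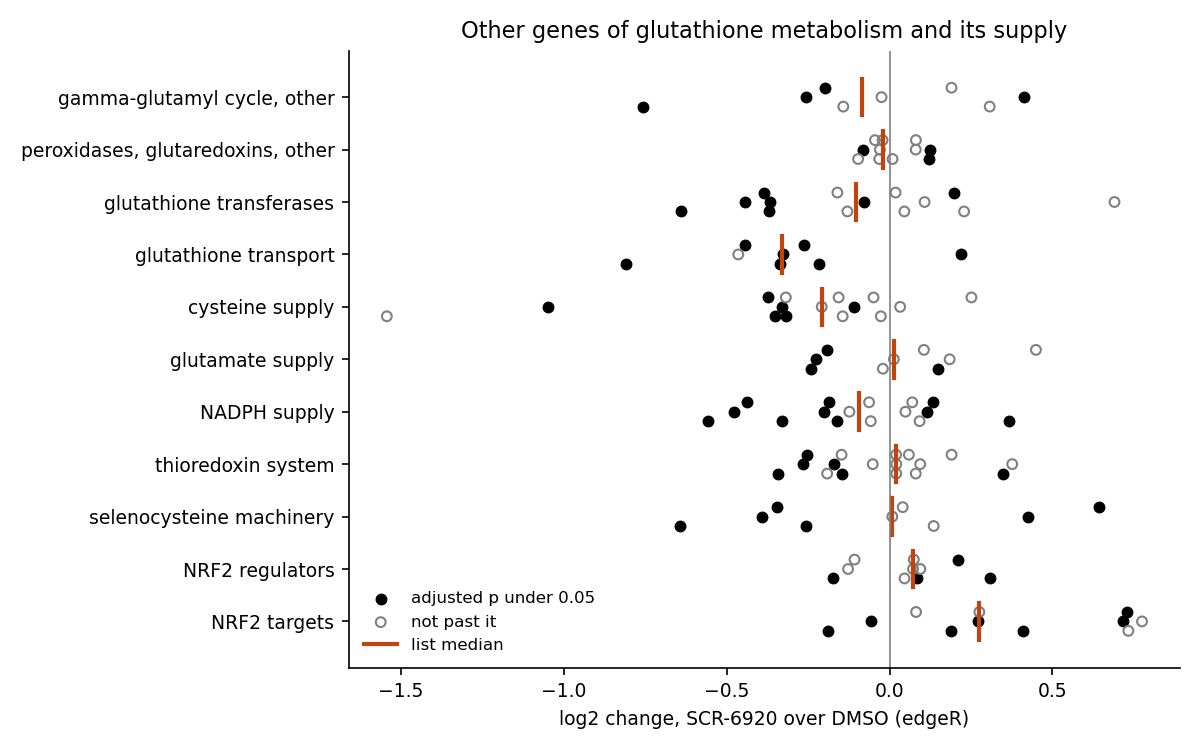
Log2 change (SCR-6920 over DMSO, edgeR) of every tested gene in the 11 lists, filled where the adjusted p is under 0.05 and open where it is not, with a bar at each list's median. Glutathione transport has the lowest median, -0.33, and NRF2 targets the highest, 0.28.

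Genes beside OPLAH on chromosome 8 were lower or did not pass. Among the 5 nearest tested genes on each side, in the gene order of RefSeq GRCh38.p14, 5 fell and 5 did not pass, against 21.3% of all tested genes called lower. OPLAH and EXOSC4, which lie on opposite strands, start 94 bases apart in RefSeq and 14660 bases apart in GENCODE 29. EXOSC4, an exosome subunit gene, measured 37.8, 33.7 and 33.2 CPM in SCR-6920 samples, against 38.9, 33.4 and 37.99 CPM in DMSO samples, a log2 difference of -0.08 ± 0.07 (SE) with an edgeR adjusted p of 0.396. The groups overlapped for EXOSC4, unlike for OPLAH. On the other side, GRINA had a log2 change of 0.06 ± 0.04 (adjusted p = 0.214). NRBP2 fell by 0.97 ± 0.09, GPAA1, of glycosylphosphatidylinositol anchoring, by 0.82 ± 0.06, PARP10 by 0.47 ± 0.06, SHARPIN by 0.43 ± 0.09 and PLEC by 0.18 ± 0.03. The remaining 3 were EPPK1, CYC1 and MAF1, at -0.38, 0.04 and -0.07.

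**Figure D5:**
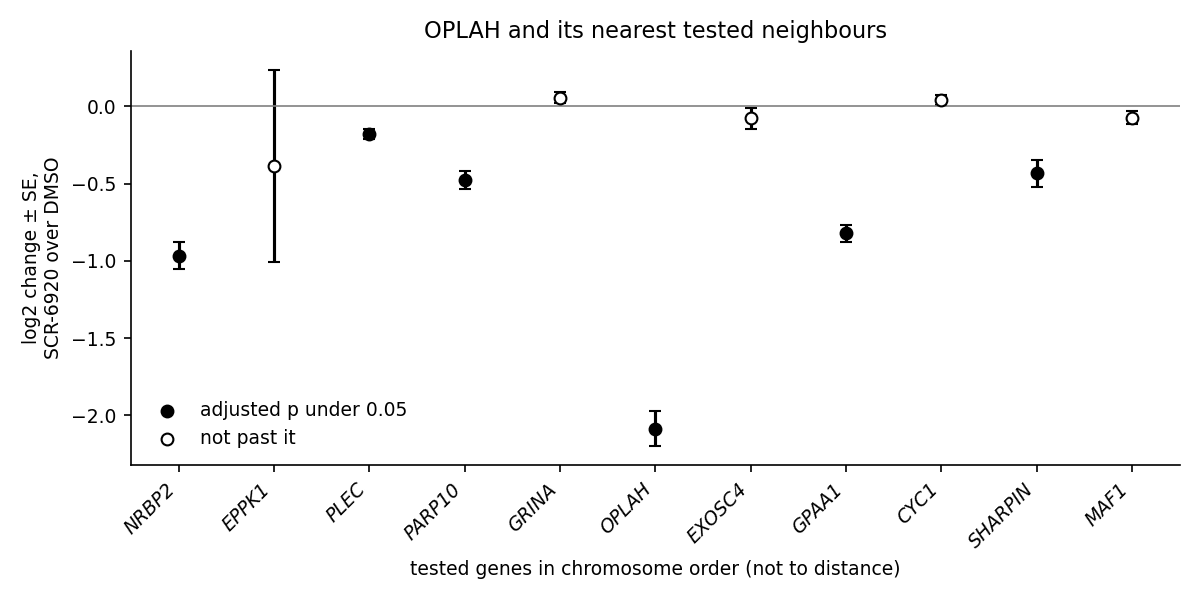
Log2 change ± SE (SCR-6920 over DMSO, edgeR, 3 samples per group) of OPLAH and the 5 nearest tested genes on each side, evenly spaced in chromosome order, filled where the adjusted p is under 0.05. OPLAH lies at -2.08, while its direct neighbours GRINA and EXOSC4 lie at 0.06 and -0.08.

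The genes most like OPLAH across the 6 samples were found by the root mean square distance between log2 CPM profiles, each centred on its own mean, among the other 9969 protein-coding genes whose average reached 5 CPM. CSPG5 was nearest at a distance of 0.33, followed by PGGHG at 0.35, HDHD2 at 0.41, MFSD3 at 0.42 and ITPR3 at 0.42, all on the log2 scale. CSPG5, a chondroitin sulfate proteoglycan gene, averaged 2.70 ± 0.05 CPM in SCR-6920 samples and 7.73 ± 0.63 CPM in DMSO samples (SD, n = 3). PGGHG averaged 13.7 ± 1.1 CPM in SCR-6920 samples and 38.2 ± 3.0 CPM in DMSO samples. Centring ran over both groups, so closeness to OPLAH mainly reflects a large fall, and shared regulation was not tested. Log2 changes of the 5 ran from -1.51 for CSPG5 to -1.30 for HDHD2, against -2.08 for OPLAH. None of the 5 is on a list used here.

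Totals ran from 38149448 to 38642181 counts in SCR-6920 samples and from 39122787 to 39749993 in DMSO samples. The chi-square per gene between counts of DMSO replicate 1 and those of DMSO replicates 2 and 3 was 6.87 and 9.25. It was 4.44 between DMSO replicates 2 and 3, and 3.74 to 3.99 among SCR-6920 samples. DMSO replicate 1 thus lay furthest from the other controls across genes, and its part in the single results above was not tested. PRMT5 mRNA, encoding the target of the compound, differed in log2 by 0.02 ± 0.03 between groups (SE, edgeR adjusted p = 0.705). Of 10 markers listed for epithelium and ovarian carcinoma, 9 were in the table and 4 were tested, with a summed level of 6.71 to 8.98 CPM in SCR-6920 samples and 4.72 to 5.61 CPM in DMSO samples. PAX8 and MSLN had at most 2 counts in any sample, while EPCAM had 27 to 38 counts in SCR-6920 samples and 1 to 15 in DMSO samples (log2 change 1.78 ± 0.56, adjusted p = 0.0103), and the part of this in the results above was not tested. KRT8 was called higher too, with 86 to 123 counts in SCR-6920 samples and 72 to 80 in DMSO samples (log2 change 0.57 ± 0.23, adjusted p = 0.0456), a call that ended with any DMSO sample removed (adjusted p = 0.0868, 0.0583 and 0.102) and with SCR-6920 replicate 2 or 3 removed (0.124 and 0.175). The EPCAM call ended with DMSO replicate 1 (adjusted p = 0.0738) or SCR-6920 replicate 2 (0.0668) removed. Of 12 markers of leukocytes, endothelium and fibroblasts, PTPRC, CDH5 and VWF were at 0 in all samples, and the 4 tested summed to 360.1 to 373 CPM in SCR-6920 samples and 344 to 350.4 CPM in DMSO samples, nearly all of it COL3A1. COL3A1 was called higher by 0.07 ± 0.03 (log2, SE, adjusted p = 0.0286), but its adjusted p was 0.114 with DMSO replicate 2 removed and 0.177 and 0.0597 with SCR-6920 replicate 1 or 3 removed.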

How the data were processed

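Qiagen columns gave the RNA and an Illumina stranded mRNA kit the libraries, per the labels' protocols. HISAT2, HTSeq and the mouse build GRCm38 stand in the submitters' processing notes. Of 24054 Entrez numbers 23279 are in the human reference, so the counts carry human gene numbers. The build used for counting is unclear, and the coordinates and gene order given here come from RefSeq and GENCODE. The authors deposited raw counts per gene and FPKM values made from the same counts with 1 length per gene. The tests used edgeR 4.0.16 under R 4.3.3 (filterByExpr, TMM, robust quasi-likelihood fit on all 6 samples, group as the only term, Benjamini-Hochberg over 14233 genes). SE came from the log2 change and its F statistic, and CPM uses TMM-scaled library sizes. Only the edgeR fit was tested on simulated counts, which had the same dispersion for every gene and far fewer changed genes than were called here. Alternatives used limma 3.58.1 and DESeq2 1.42.0. Replicate numbers were not treated as pairs.

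The 10 genes, the lists and the tests were chosen with earlier results of these data known. Named genes were the 10, up to 3 higher and 3 lower per list by size of change, the 5 nearest OPLAH in profile, 5 tested neighbours on each side and PRMT5. CHAC2, PGPEP1, SLC25A39, SLC25A40, SLC7A11, TXNRD1, SECISBP2, NFE2L2, KEAP1 and the markers were named after their values were seen. The annotated list was added after seeing the data.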

Additional observations from a re-analysis of the deposited data

How the results depend on the processing

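The number of genes called (5976) was lowest, 4538, with a threshold of 0.01 and highest, 6144, with a replicate block, and ran from 5190 to 5936 without 1 replicate. Same-numbered samples had correlations of 0.117, 0.0294 and 0.0878 between their deviations from the group means. Samples of different number had -0.138 to 0.0536. These values were small and numbers were not taken as pairs, but they cannot exclude a weak pairing. The replicate block left 4 of the 10 genes lower and 2 higher. The 4 called lower were 3 by limma on log2(FPKM + 1) and on log2(FPKM + 0.1), 2 by limma on log2(FPKM + 1) without a filter, 2 at an adjusted p under 0.01, and 2 to 4 without 1 replicate, the calls lost being those of GCLM and GGCT. The 2 called higher were 2 under all 16 alternatives. The log2 change of OPLAH was -1.43 in both limma fits on log2(FPKM + 1), filtered and unfiltered, since the added 1 is close to its treated level, and from -2.22 to -2.01 without 1 replicate. Other log2 changes of the 10 genes moved by less than the replicate SD. Over the pooled lists the count of higher genes ran from 17 to 25 and of lower genes from 38 to 45. Of 74 other genes named or followed, SECISBP2 not included, none changed direction when called and 18 lost or gained a call under some alternative. The cause was not tested.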
